A study of Mus musculus with 24 samples.

Results

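Clade B serpins are serine protease inhibitors that lack a secretion signal and act mainly inside the cell. A serpin presents a reactive loop as bait, and the protease that cuts it is trapped in a covalent complex. The mouse family is larger than the human one because the Serpinb6 and Serpinb9 genes were copied many times on chromosome 13. Serpinb9 protects cells from granzyme B, Serpinb1a blocks neutrophil elastase, and Serpinb2, also called PAI-2, is an inhibitor of urokinase that stress and inflammation induce in many cells.

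The 9 genes described here are Serpinb6a, Serpinb6b, Serpinb9, Serpinb9b, Serpinb9e, Serpinb9g, Serpinb1a, Serpinb2 and Serpinb8, among 52089 symbols of the expression table. The entry that stands for each gene was selected on its mean level over all 24 libraries, as the highest of the entries with that symbol, which does not use the contrast between groups. The list of genes itself was drawn up when their changes in these data were known. Test results for the members therefore describe their sizes and errors and are no independent evidence that the family responds.

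The study asked what the long noncoding RNA Ctcflos does while preadipocytes turn into brite adipocytes, the heat-producing fat cells that arise in white fat. All libraries came from primary cells of the stromal vascular fraction of inguinal white fat of 129SvEv mice, differentiated with rosiglitazone. Early in differentiation they were reverse transfected with LNA gapmers (50 nM), short antisense strands that make RNase H cut the RNA they pair with. The gapmer was aimed at Ctcflos (group KD) or was a nontargeting control (group NC), and RNA was taken after 24 h or 72 h, with 6 libraries for each treatment and time. All KD libraries carried 1 gapmer, so an effect of Ctcflos loss and an effect of that oligonucleotide cannot be told apart in these data.

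Levels are RPKM, that is, reads scaled to the length of the table entry and to the mapped reads of the library. The RPKM steps gave 1391832 to 5926375 mapped reads per library. NC 72 h replicates 2 and 3 differed by less than sampling noise (0.34 of the variance expected from counting, against 2.00 in the next closest pair) and were counted as 1 sample, so that n = 5 in NC 72 h. After group means were subtracted, hierarchical clustering of the correlations was cut into 2 clusters, 8 libraries (2 in each group) and the other 16. They are called the smaller and the larger cluster here, and no label says where the split comes from. Such a cut yields 2 clusters in any data. Between libraries of different groups, the mean correlation was 0.06 within a cluster and -0.08 across clusters. The split was drawn from these same values, so tests within a cluster are descriptions and no independent evidence. The RefSeq entry of Ctcflos (1300015D01Rik, NR_040321) ranged from 0 to 0.62 RPKM in KD 24 h and from 0.18 to 1.38 RPKM in NC 24 h, and from 0 to 0.52 RPKM in KD 72 h and 0.85 to 1.75 RPKM in NC 72 h. This entry lies downstream of the gapmer's target site. An isoform that holds the site (ENSMUST00000144256) had 12 reads in NC 24 h, 8 in KD 24 h, 41 in NC 72 h and 3 in KD 72 h. The adipocyte genes Adipoq, Plin1, Fabp4, Cidec, Lpl and Cfd were expressed in every group, with a summed level of 28624 to 54826 RPKM over all samples.

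Of the 28 mouse clade B genes in the annotation, 12 lie together on chromosome 1 and 16 on chromosome 13. Serpinb2 and Serpinb8 belong to the first cluster, and the 7 other members to the second. Serpinb9e and Serpinb9g are close copies. Over 296 aligned bases their promoter windows (250 bases before to 50 after the start) shared 284 bases, or 95.9%, whereas those of Serpinb9 and Serpinb9b were 67.5% identical. Both windows are shown because these copies were close to absent in NC and present in every library of KD 72 h, and capitals mark the bases that differ between them. The sequences are RefSeq's on GRCm38.p6, plus strand, at chr13:33249358-33249657 and chr13:33484540-33484839.
Serpinb9e: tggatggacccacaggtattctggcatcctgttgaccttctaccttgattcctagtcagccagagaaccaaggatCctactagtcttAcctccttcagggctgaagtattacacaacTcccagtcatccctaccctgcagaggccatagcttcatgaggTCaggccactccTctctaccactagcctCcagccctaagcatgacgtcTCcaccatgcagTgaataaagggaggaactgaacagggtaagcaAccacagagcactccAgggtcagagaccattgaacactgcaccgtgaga
Serpinb9g: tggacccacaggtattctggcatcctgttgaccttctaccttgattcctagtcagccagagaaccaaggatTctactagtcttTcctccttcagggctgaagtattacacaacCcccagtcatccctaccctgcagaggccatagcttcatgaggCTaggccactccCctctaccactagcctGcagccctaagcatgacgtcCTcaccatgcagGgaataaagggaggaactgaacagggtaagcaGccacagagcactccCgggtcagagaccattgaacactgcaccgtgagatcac

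Promoter windows were found for 8 of the 9 members, all but Serpinb1a. They were searched on both strands for an AP-1 site (TGANTCA), an antioxidant response element (TGACNNNGC), an interferon-type GAS site (TTCNNNGAA) and a kappa B site. These occurred in 7.81%, 12.4%, 8.30% and 4.51% of 32851 promoter windows. No window of Serpinb6b, Serpinb9, Serpinb9b, Serpinb9e or Serpinb9g held a match, which says only that these letters are not in these 300 bases. Serpinb8 held the AP-1 letters at 2 places and Serpinb2 at 1, and Serpinb2 also held the GAS letters. Serpinb6a held the GAS letters at 2 places in 1 of its windows and the antioxidant response element in the other. The first Serpinb2 window is printed because Serpinb2 was the member with another pattern at 72 h. It lies at chr1:107511173-107511472 on the plus strand of GRCm38.p6, with the AP-1 and GAS letters in capitals.
Serpinb2: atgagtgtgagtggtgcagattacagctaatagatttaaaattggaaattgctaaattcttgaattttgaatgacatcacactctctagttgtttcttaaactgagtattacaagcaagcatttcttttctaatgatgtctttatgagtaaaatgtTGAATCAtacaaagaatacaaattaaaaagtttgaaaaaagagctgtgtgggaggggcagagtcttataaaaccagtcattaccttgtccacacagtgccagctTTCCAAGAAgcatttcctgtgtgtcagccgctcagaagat

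Reads of copied genes may be assigned to the wrong copy. Of all stretches of 50 bases in the annotated transcripts, 54.8% of those of Serpinb9g and 28.4% of those of Serpinb9e also occurred in another gene, mainly in Serpinb9f and in the gene model Gm11397. The shares were 2.92% for Serpinb6b, 2.81% for Serpinb1a, 0.75% for Serpinb6a, 0.48% for Serpinb9b, 0.38% for Serpinb9 and 0.17% for Serpinb8. Over the last 500 bases of the transcripts they were 26.8% for Serpinb9g and 39.9% for Serpinb9e. Serpinb2 shared 10.4% of its whole transcripts and 23.4% of their last 500 bases with the annotated transcripts of Serpinb10, which was above 0 in 2 of 24 libraries. Values of Serpinb9e, Serpinb9g and, to the extent of this overlap, Serpinb2 are thus uncertain as to which gene was read.

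In control cells at 24 h, Serpinb6a was by far the highest on the RPKM scale, with 105 ± 4.75 RPKM (SD, n = 6). Serpinb1a followed with 15.6 ± 3.54, Serpinb9 with 9.75 ± 1.25, Serpinb8 with 7.93 ± 0.98 and Serpinb9b with 7.23 ± 1.91 RPKM, and the last 3 overlapped in range. Serpinb6b averaged 3.32 ± 1.36 and Serpinb2 1.45 ± 0.86 RPKM, whereas Serpinb9e and Serpinb9g stood at 0.31 ± 0.20 and 0.12 ± 0.26 RPKM. The order differed in KD 72 h, where Serpinb6a (186 ± 27.3 RPKM) was followed by Serpinb9b (88.1 ± 12.8), Serpinb6b (51.7 ± 7.77), Serpinb9 (47.8 ± 1.37) and Serpinb1a (47.4 ± 12.8). The ranges of Serpinb6b, Serpinb9 and Serpinb1a overlapped there. Because the reads come from transcript ends, dividing by entry length lowers the level of long entries relative to short ones.

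**Figure D1:**
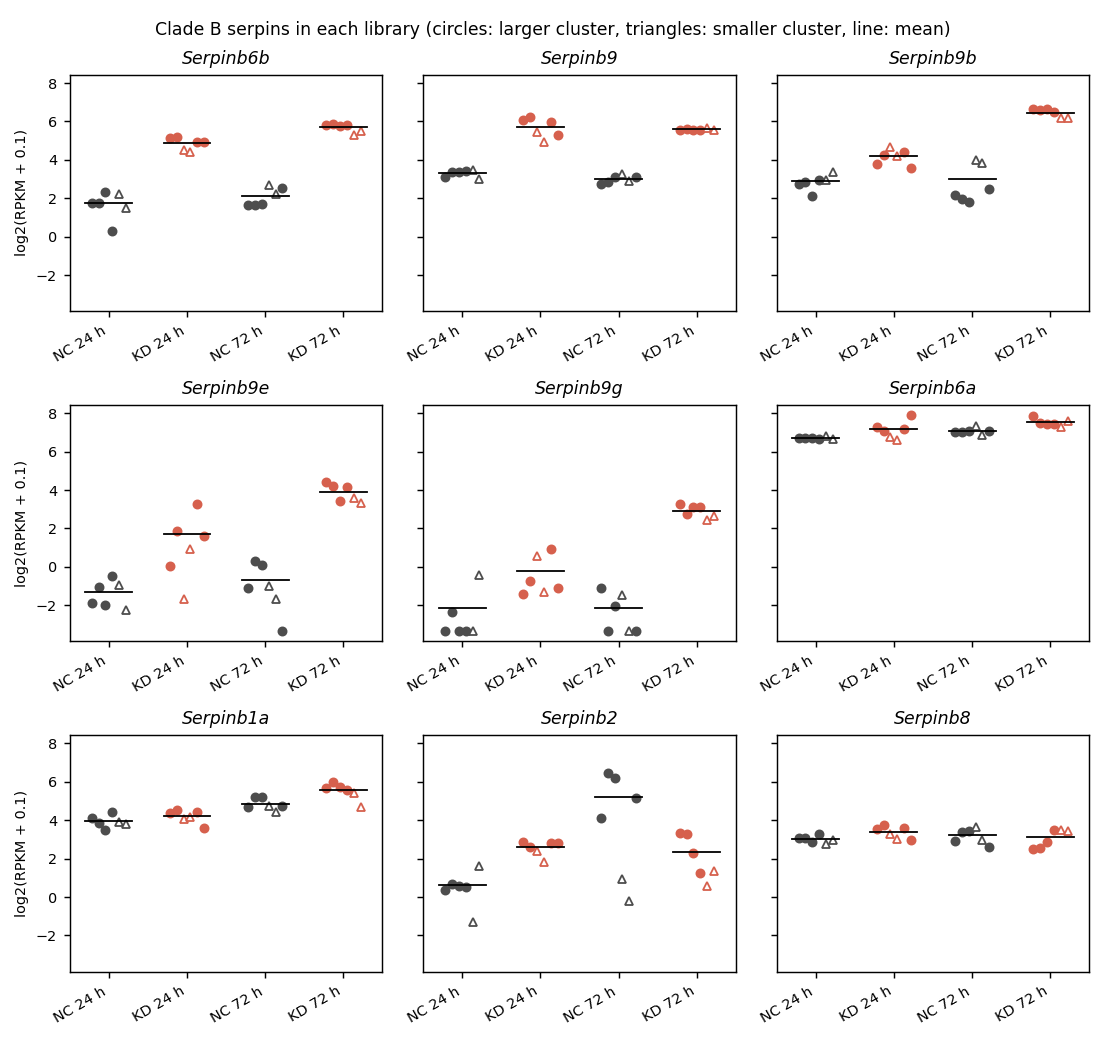
Level of each clade B serpin in every library as log2(RPKM + 0.1), with control libraries (NC) in grey, knockdown libraries (KD) in red, libraries of the larger cluster as filled circles, those of the smaller cluster as open triangles and group means as lines. Serpinb6b, Serpinb9 and Serpinb9b lie higher in KD than in NC at both times without overlap, Serpinb9e and Serpinb9g do so at 72 h, and Serpinb2 spreads widely in NC 72 h.

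After 24 h, 4 of the 7 members that could be tested were higher in KD (Serpinb6b, Serpinb9, Serpinb9b and Serpinb2) and none was lower. Among all 11133 symbols tested at 24 h, 11.7% were higher and 11.6% lower by the same rule, an adjusted p under 0.05 in limma. After 72 h, 3 of the same 7 members were higher (Serpinb6b, Serpinb9 and Serpinb9b) and none was lower, against 10.9% higher and 13.5% lower among 11607 symbols. The median log2 fold change of these 7 members was 1.26 at 24 h and 0.51 at 72 h, beside medians close to 0 (-0.01 and 0.01) over all entries tested. Serpinb9e and Serpinb9g were called higher at 72 h too, but they reached the minimum of reads only through KD 72 h, where they are high, and so had to differ. They were left out at 24 h and are not counted against the background shares. Serpinb6b (1.11 RPKM in NC 24 h replicate 4) and Serpinb2 (1.17 and 0.30 RPKM in NC 24 h replicates 1 and 5) fell below the minimum in those libraries. Both were thus tested at 24 h only because KD libraries, where they are high, reached it too. Their calls at 24 h cannot be set against the background share, whereas Serpinb9 and Serpinb9b reached the minimum in NC alone.

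Serpinb6b, a relative of Serpinb6a known as an inhibitor of granzyme A, had 1.11 to 4.89 RPKM in NC 24 h (median 3.28) and 21.4 to 36.5 RPKM in KD 24 h (median 30.5). At 72 h the NC libraries 1 to 6 measured 3.00, 3.05, 3.11, 6.42, 4.51 and 5.79 RPKM, and KD 72 h ranged from 39.0 to 59.4 RPKM (median 55.2). Every KD library lay above every NC library at both times. The rise was 8.96-fold at 24 h (3.16 ± 0.28 on the log2 scale with its SE, adjusted p = 3.12e-05) and 9.71-fold at 72 h (3.28 ± 0.21, adjusted p = 7.00e-07). In the interaction test the effect at 72 h minus that at 24 h was 0.13 ± 0.38 (adjusted p = 0.93). All 5 entries that carry the symbol were called higher at both times, with log2 fold changes from 3.03 to 3.42.

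Serpinb9, the granzyme B inhibitor, ranged from 7.86 to 11.0 RPKM in NC 24 h (median 10.2) and from 29.98 to 75.2 RPKM in KD 24 h (median 53.2). NC 72 h libraries 1 to 6 measured 6.56, 7.09, 8.65, 9.55, 7.34 and 8.67 RPKM. KD 72 h ranged narrowly from 46.6 to 50.2 RPKM, so that no library of NC reached the level of any library of KD. The log2 fold changes were 2.32 ± 0.20 (adjusted p = 2.55e-05) and 2.33 ± 0.11 (adjusted p = 2.05e-07), or 4.98-fold and 5.02-fold. The difference between times was 0.02 ± 0.24 (adjusted p = 0.98). In the ranking of all 54409 entries by p at 72 h, Serpinb9 stood at place 2.

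Serpinb9b, a close paralogue of Serpinb9, differed in time course. It ranged from 4.29 to 10.2 RPKM in NC 24 h (median 7.30) and from 11.9 to 25.2 RPKM in KD 24 h (median 18.7). In NC 72 h the libraries 1 to 6 measured 4.36, 3.80, 3.38, 16.1, 14.2 and 5.48 RPKM, where replicates 4 and 5 form the smaller cluster. KD 72 h ranged from 72.2 to 100.4 RPKM (median 92.6). The groups did not overlap at either time, and the fold change was 2.39 at 24 h (log2 1.26 ± 0.24, adjusted p = 0.0028) and 10.03 at 72 h (3.33 ± 0.34, adjusted p = 2.45e-05). The effect at 72 h exceeded that at 24 h by 2.08 ± 0.44 on the log2 scale (adjusted p = 0.047). It was the 1 member of 9 called in this interaction, in which 0.203% of 12789 symbols were higher and 0.102% lower. That call rests close to the threshold and was lost without any 1 of 17 of the 23 samples (adjusted p from 0.051 to 0.098). It stayed without NC 24 h replicate 3, KD 24 h replicate 3 or 4, KD 72 h replicate 6 or NC 72 h replicate 4 or 5. Within the larger cluster the 72 h effect was 4.20 ± 0.14 and within the smaller cluster 1.92 ± 0.16, both called, and the interaction was 2.98 (adjusted p = 0.00033) and 0.62 (adjusted p = 0.31).

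Serpinb9e and Serpinb9g, 2 of the recent copies of Serpinb9, were close to absent in control cells. Serpinb9e had 0.11 to 0.62 RPKM in NC 24 h and 0.21 to 9.45 RPKM in KD 24 h, with 16 and 152 reads in all, and these ranges overlapped. NC 72 h libraries 1 to 6 measured 0.36, 1.15, 0.97, 0.40, 0.22 and 0 RPKM, whereas KD 72 h ranged from 9.96 to 21.5 RPKM (median 14.9). Serpinb9g had 0 to 0.65 RPKM in NC 24 h, 0.27 to 1.83 RPKM in KD 24 h, 0 to 0.36 RPKM in NC 72 h and 5.31 to 9.53 RPKM in KD 72 h, from 7, 40, 5 and 326 reads. At 72 h neither gene overlapped between KD and NC. The log2 fold changes at 72 h were 5.03 ± 0.50 for Serpinb9e (adjusted p = 1.79e-05) and 5.08 ± 0.42 for Serpinb9g (adjusted p = 5.22e-06). With so few control reads these depend on the pseudocount, and with 1 RPKM in place of 0.1 they were 3.35 and 2.77, both still called. At 24 h, where limma was not run on them, an exact two-sided permutation test over samples gave unadjusted p = 0.0087 for Serpinb9e and 0.045 for Serpinb9g, with a smallest possible p of 0.0022.

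Serpinb2 was higher in KD at 24 h and not called at 72 h. At 24 h it ranged from 0.30 to 2.97 RPKM in NC (median 1.37) and from 3.42 to 7.28 RPKM in KD (median 6.54), without overlap, a 4.30-fold rise (log2 2.10 ± 0.37, adjusted p = 0.0019). Within the smaller cluster it was 1.97 (adjusted p = 0.20). At 72 h, NC libraries 1 to 6 measured 17.1, 89.4, 74.0, 1.84, 0.75 and 35.1 RPKM. KD 72 h libraries 1 to 6 measured 10.05, 9.57, 4.76, 2.27, 1.38 and 2.42 RPKM. The control group thus spanned both sides of the knockdown group, and the difference was -1.499 ± 1.01 (adjusted p = 0.31). The 2 low control libraries, replicates 4 and 5, are those of the smaller cluster. Within the larger cluster every control library (17.1 to 89.4 RPKM) lay above every KD library (2.27 to 10.05 RPKM), and the log2 fold change was -2.87 ± 0.54 (adjusted p = 0.0030). Within the smaller cluster, with 2 samples a group, it was 0.28 ± 0.52 (adjusted p = 0.79). The interaction was -3.59 ± 1.14 (adjusted p = 0.19) over all samples and -5.03 (adjusted p = 0.00089) within the larger cluster.

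**Figure D2:**
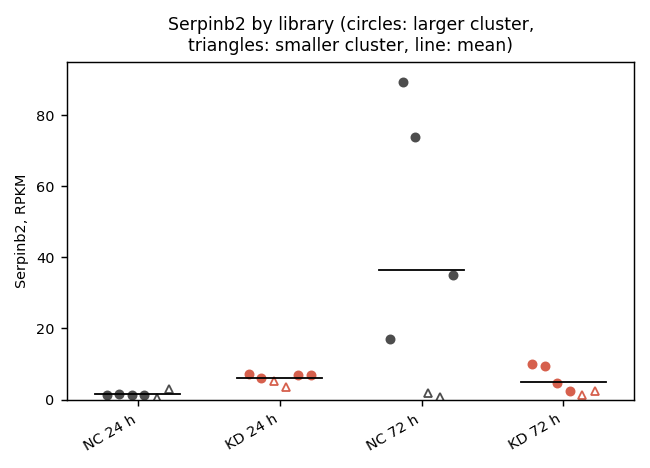
Serpinb2 in RPKM for each library, with NC in grey, KD in red, filled circles for the larger and open triangles for the smaller cluster and a line at the mean of the 6 libraries. In NC 72 h the 4 libraries of the larger cluster sit at 17.1 to 89.4 RPKM and those of the smaller cluster at 0.75 and 1.84 RPKM.

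The other members, Serpinb6a, Serpinb1a and Serpinb8, did not pass the test between KD and NC. Serpinb6a, an inhibitor of cathepsin G, had 100.03 to 113 RPKM in NC 24 h and 96.3 to 236 RPKM in KD 24 h, with overlap. Its log2 fold change was 0.36 ± 0.14 at 24 h (adjusted p = 0.087) and 0.21 ± 0.11 at 72 h (adjusted p = 0.20). Without KD 24 h replicate 4 the 24 h value was 0.44 (adjusted p = 0.028), and within the smaller cluster it was -0.04. Serpinb1a, which blocks neutrophil proteases, measured 21.7 to 36.7 RPKM in NC 72 h and 25.4 to 63.9 RPKM in KD 72 h, and its log2 fold change was 0.21 ± 0.20 at 24 h (adjusted p = 0.46) and 0.51 ± 0.23 at 72 h (adjusted p = 0.12). Leaving out KD 72 h replicate 6, the lowest of its group, gave 0.71 (adjusted p = 0.0060). Serpinb8, an inhibitor of furin, had a log2 fold change of 0.31 ± 0.17 (adjusted p = 0.20) and -0.30 ± 0.24 (adjusted p = 0.39), and KD 72 h replicates 1 to 3 (5.49 to 7.31 RPKM) lay below replicates 4 to 6 (10.9 to 11.3 RPKM).

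Scaling bears on the 72 h values. Without scaling, entries at 72 h had a median log2 fold change of 0.25, with 80.9% of calls on the higher side, against 46.2% after scaling. On that deposited scale Serpinb6a (0.46, adjusted p = 0.0084) and Serpinb1a (0.76, adjusted p = 0.011) were called higher at 72 h as well. The members that were called after scaling had larger changes than this shift.

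**Figure D3:**
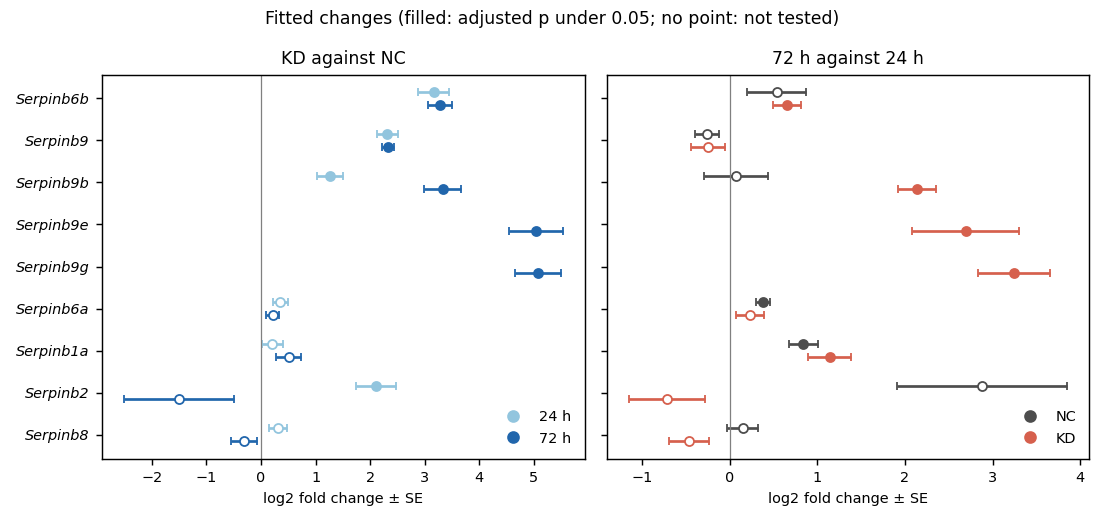
Fitted log2 fold change with its SE for each clade B serpin, on the left for KD against NC at 24 h (light blue) and 72 h (dark blue), on the right for 72 h against 24 h in NC (grey) and KD (red), with filled points for an adjusted p under 0.05 and no point where the gene was not tested. Serpinb6b stands at 3.16 and 3.28 and Serpinb9 at 2.32 and 2.33 after knockdown. From 24 h to 72 h in KD, Serpinb9b, Serpinb1a and Serpinb6b rose. Serpinb9e and Serpinb9g are filled there too, but they passed the filter only through KD 72 h and had to differ.

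The time course within each treatment was compared to see which members also change in NC, where cells received the nontargeting gapmer. In NC, 2 of 7 members rose from 24 h to 72 h, Serpinb6a by 0.38 ± 0.08 (adjusted p = 0.0073) and Serpinb1a by 0.84 ± 0.17 (adjusted p = 0.0054) on the log2 scale, and none fell. Within the smaller cluster neither was called (0.34, adjusted p = 0.29, and 0.70, adjusted p = 0.077). Among 11302 symbols 5.47% rose and 4.8% fell. Serpinb2 stood at 2.88 ± 0.97 (adjusted p = 0.084). It was called without NC 72 h replicate 4 (3.47, adjusted p = 0.042) or replicate 5 (3.75, adjusted p = 0.012). In KD, 3 of the 7 rose and none fell, against 5.69% and 5.35% of 11371 symbols. These were Serpinb9b (2.14 ± 0.21, adjusted p = 1.98e-05), Serpinb1a (1.14 ± 0.24, adjusted p = 0.0079) and Serpinb6b (0.65 ± 0.16, adjusted p = 0.019). Serpinb9g (3.24 ± 0.41) and Serpinb9e (2.69 ± 0.61) were called as well, but had to differ for the reason given above. Serpinb9 did not pass in either treatment (-0.26 ± 0.14 in NC and -0.25 ± 0.19 in KD). The median over the 7 members was 0.38 in NC and 0.23 in KD.

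The other clade B genes were mostly silent. Of 19 listed, 18 were in the table, and 8 of these (Serpinb3a, Serpinb3b, Serpinb3c, Serpinb3d, Serpinb6d, Serpinb6e, Serpinb12 and Serpinb13) were listed at 0 in all libraries. None had enough reads to be tested between KD and NC. Reads summed over the 6 libraries of NC 24 h, KD 24 h, NC 72 h and KD 72 h numbered 2, 21, 3 and 82 for Serpinb9c, and 5, 50, 21 and 32 for Serpinb1b. For Serpinb9d they numbered 2, 3, 0 and 48, and for Serpinb9f 0, 7, 0 and 25. Serpinb6c had 3 and 14 reads in KD 24 h and KD 72 h, Serpinb5 had 4 and 10, and both had 0 in NC. Serpinb9c was tested in the interaction and was not called (1.70 ± 0.85, adjusted p = 0.44). Serpinb9d and Serpinb9f share sequence with Serpinb9e and Serpinb9g, and which copy their reads came from was not tested.

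**Figure D4:**
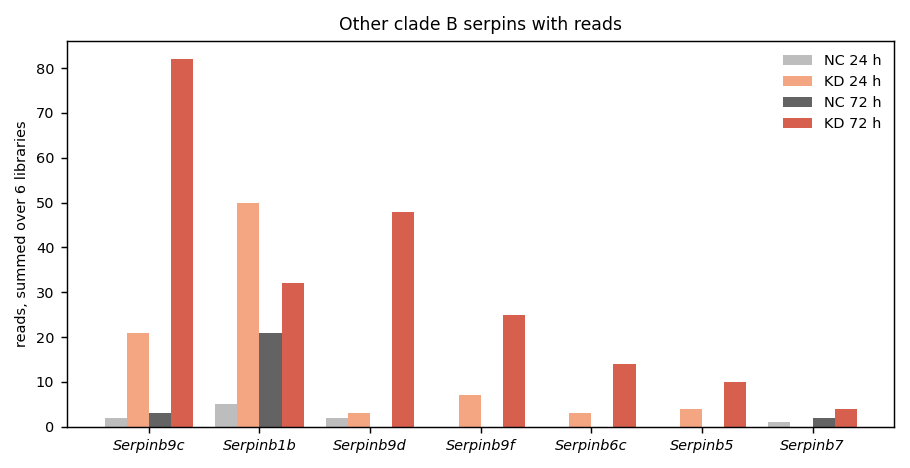
Reads of the other clade B genes, summed over the 6 libraries of each group, for the 7 genes of highest mean level. In 6 of the 7 genes KD 72 h holds the most reads and both NC groups hold 0 to 3, whereas Serpinb1b has the most reads in KD 24 h.

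Serpins of other clades, most of them secreted, had calls in both directions. Of 32 listed genes 8 were tested at each time. At 24 h, 2 were higher and 4 lower, and at 72 h 1 was higher and 1 lower. Of all symbols tested, 11.7% were higher and 11.6% lower at 24 h, and 10.9% and 13.5% at 72 h. Serpina3g, which acts inside the cell, rose at 24 h (0.95 ± 0.27, adjusted p = 0.020). Serpina3n fell by 0.80 ± 0.17 at 24 h (adjusted p = 0.0052). The gene lower at 72 h, named after its values were seen, was Serpinh1, a collagen chaperone of the endoplasmic reticulum, which fell by 0.57 ± 0.11 (adjusted p = 0.0026), and by 0.48 ± 0.10 at 24 h (adjusted p = 0.0055). Serpini1, or neuroserpin, rose at 72 h (1.54 ± 0.42, adjusted p = 0.018) from 0.60 ± 0.39 RPKM to 2.00 ± 0.68 RPKM. The list's median log2 fold changes were -0.35 and -0.34.

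Of 9 proteases listed as partners of clade B serpins, 4 were tested and 2 were higher at both times. The share of all symbols tested that were higher was 11.7% at 24 h and 10.9% at 72 h. Plat, tissue plasminogen activator, rose by 0.58 ± 0.17 (adjusted p = 0.027) and 0.78 ± 0.14 (adjusted p = 0.0013). Casp1, the caspase of the inflammasome, rose by 0.91 ± 0.26 (adjusted p = 0.021) and 1.01 ± 0.32 (adjusted p = 0.034). Plau, the urokinase that Serpinb2 inhibits, had log2 fold changes of 0.02 ± 0.20 and 0.04 ± 0.49 (adjusted p = 0.96 and 0.97), and Furin -0.07 ± 0.26 and 0.26 ± 0.42 (adjusted p = 0.87 and 0.70). The remaining proteases, among them Gzmb, Ctsg, Elane and Prtn3, had too few reads to be tested.

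Clade B serpins are abundant in blood cells and in epithelia, so markers of such cells were read beside them. Markers of cytotoxic lymphocytes (5 genes) summed to at most 0.36 RPKM in any sample, with all 5 at 0 in KD 24 h, NC 24 h and NC 72 h. The 6 keratinocyte and epithelial markers summed to 1.19 to 4.12 RPKM in KD 72 h and 0 to 0.49 RPKM in NC 72 h, without overlap, and to 0 to 2.64 RPKM in KD 24 h and 0 to 1.17 RPKM in NC 24 h. The 5 mast cell markers summed to 0.42 to 3.96 RPKM in KD 72 h (median 2.32) and 0.24 to 0.78 RPKM in NC 72 h (median 0.31), mainly from Tpsb2, with Mcpt4 at 0 in all groups. At 24 h they summed to at most 1.24 RPKM in KD and 1.88 RPKM in NC. No gene of either list had enough reads to be tested. The sums of neutrophil and endothelial markers were at most 12.6 and 2.64 RPKM. Of 5 macrophage markers in the table, 2 were tested and both rose, Cd68 by 1.23 ± 0.33 and 1.94 ± 0.47 and Csf1r by 1.29 ± 0.26 and 1.24 ± 0.24 at 24 h and 72 h (adjusted p from 0.0020 to 0.017). Of all symbols tested, 11.7% were higher at 24 h and 10.9% at 72 h. The summed level of the 5 macrophage markers was 12.6 to 25.1 RPKM in KD 24 h and 4.08 to 15.1 RPKM in NC 24 h. At 72 h it was 22.6 to 40.03 RPKM in KD and 6.16 to 17.9 RPKM in NC. The means of Mrc1, C1qa and C1qb stayed under 2 RPKM in every group. The part of such cells in the serpin values was not tested, and more cells of a type and more RNA per cell cannot be told apart in bulk libraries.

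Of 6 mesothelial markers 2 were tested at 24 h and 3 at 72 h. Krt19 rose by 1.06 ± 0.25 at 24 h (adjusted p = 0.0092) and by 2.54 ± 0.16 at 72 h, from 21.5 ± 3.07 to 150.2 ± 24.3 RPKM, while Lrrn4 fell by 0.78 ± 0.13 at 72 h (adjusted p = 0.0010). Wt1 had 14.8 ± 13.4 RPKM in NC 72 h and 4.33 ± 2.03 RPKM in KD 72 h and was not called. Msln, not tested, was at 0 in NC 72 h and had 0.95 ± 0.72 RPKM in KD 72 h. Of 6 adipocyte markers 1 was lower at 24 h, where 11.6% of all symbols tested were lower. At 72 h 4 of 6 were lower, beside 13.5% of all symbols, among them Adipoq (-0.94 ± 0.16, adjusted p = 0.00085). None was called higher. The mean level of Cidec was 2373 RPKM in KD 72 h and 1857 RPKM in NC 72 h, both before scaling. Unscaled values at 72 h lean towards KD in general, by 0.25 on the log2 scale for the middle entry. These 2 means therefore cannot be set against the scaled fits. Of 4 tested progenitor and fibroblast markers none passed at 24 h. At 72 h Pdgfrb rose (0.59 ± 0.14, adjusted p = 0.0077), where 10.9% of all symbols tested were higher. What these changes contribute to the serpin values was not tested.

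Genes next to the serpins on the chromosome were read beside them. Of 9 protein-coding genes outside the family within 500 kb of a member, all on chromosome 13, 7 were tested. None was called at 24 h, and at 72 h 1 was called, Tubb2a, a beta tubulin gene near Serpinb6a (0.91 ± 0.14, adjusted p = 0.00039). At 72 h 10.9% of all symbols tested were higher and 13.5% lower. The 6 neighbours other than Tubb2a had log2 fold changes from -0.34 to 0.40 at 24 h and from -0.23 to 0.44 at 72 h. For each of the 9 neighbours the nearest member was Serpinb1a or Serpinb6a, which were not called between KD and NC. None lay nearest to Serpinb6b, Serpinb9, Serpinb9b, Serpinb9e or Serpinb9g. Whether the region around those genes moved can therefore not be read from these neighbours.

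The genes whose level followed Serpinb6b most closely over the 23 samples, by Pearson's r of log2(scaled RPKM + 0.1), were Ngfrap1, Nap1l1, Cd24a, Abcg2 and Sprr1a, with r from 0.93 to 0.95. Serpinb9 stood at place 8 (r = 0.92). For Serpinb9g they were Cryab, Akr1b8, Serpinb9b, Sh3d21 and Akr1c18, with r from 0.89 to 0.92. The samples fall into 4 groups, so these values include the difference between KD and NC. After group means were subtracted, r was 0.36 between Serpinb6b and Serpinb9 and between Serpinb9b and Serpinb9g, and -0.54 between Serpinb9b and Serpinb2, the largest in size of the 36 pairs of members.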

How the data were processed

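Total RNA of the cells was reverse transcribed with barcoded oligo-dT primers, pooled and tagmented (BRB-seq), and read on a NextSeq 500, so that reads come from the 3' ends of transcripts. The authors aligned the reads to RefSeq and computed RPKM in the Genomatix suite, and deposited 1 table of RPKM for 168326 overlapping GenBank, Ensembl and RefSeq entries. Version, build, filters and use of strand are not given in the sources used here. Groups and replicate numbers came from the sample titles. The study describes its replicates as biological, but the labels do not say which libraries share a culture, so p-values measure only the spread between these samples.

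Mapped reads per library and entry lengths were recovered from the steps of the RPKM values (94.1% to 94.7% of low values of Ensembl entries were whole reads within 0.05). In NC 72 h replicate 6, 14.9% of low read numbers were odd, against 54.4% or more elsewhere, so its total may be overstated. An entry was tested if it reached the equivalent of 10 reads of a median library in at least n samples, n being the size of the smaller group, and 15 reads over all of them. For each comparison, libraries were scaled by trimmed means of log ratios (trimming 30% of ratios and 5% of levels), and log2(scaled RPKM + 0.1) was fitted with limma 3.58.1 in R 4.3.3 (lmFit, eBayes with trend), two-sided, with Benjamini-Hochberg adjustment over all entries tested. Fold changes on this scale understate changes of low genes. A call is an adjusted p under 0.05. The fit was tested on simulated data. Same-numbered KD and NC libraries did not deviate together (mean correlation -0.05 at 24 h and 0.02 at 72 h), so numbers do not pair samples.

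Members, lists and tests were chosen with earlier results of these data known. Named were all members, the other clade B genes of highest level, called genes of the other lists and of neighbours with the largest changes (up to 4 a list), and the 5 genes most correlated with Serpinb6b and with Serpinb9g. A gene that this rule names among the serpins of other clades is not reported here. Alternatives were a replicate block, pseudocount 1, no filter, the deposited scale, 1 entry per symbol, all 24 libraries as separate samples, leaving out each sample, each cluster alone and exact permutation tests. Shared stretches were counted in GENCODE M21 transcripts and promoters read from RefSeq windows with Python 3.11.15 and Biopython 1.88.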

Additional observations from a re-analysis of the deposited data

Results flagged for a closer look

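In KD 24 h, Serpinb9e of replicate 5 (9.45 RPKM) stood apart from the other libraries of its group, and in NC 24 h so did Serpinb9g of replicate 6 (0.645 RPKM, from 6 reads). Of 36 combinations of gene and group these 2 were singled out, where chance singles out about 1 in 20.

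The knockdown effect on Serpinb9b was larger at 72 h than at 24 h by 2.08 on the log2 scale (interaction in limma, adjusted p = 0.047).

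Reads of 4 genes outside the comparisons appeared in KD 72 h and in no library of NC 72 h. They numbered 48 for Serpinb9d, 25 for Serpinb9f, 14 for Serpinb6c and 10 for Serpinb5, above the 3 reads that a count of 0 allows.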

How the results depend on the processing

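Serpinb6b, Serpinb9 and Serpinb9b kept their calls in KD against NC at both times under every alternative run. The alternatives reuse the same libraries, and the members were listed with their changes known, so this is no independent evidence. At 24 h Serpinb6b also passed the filter only because KD libraries reached the minimum. Serpinb9e and Serpinb9g were called in each alternative at 72 h, which supports nothing, since they pass the filter only through KD 72 h. With both counted, 5 of 9 members were called at 72 h and 5 over time in KD. The count of members called was 7 at 24 h by exact permutation tests (unadjusted) and 8 at 72 h within the larger cluster (1 of them lower). Both counts include Serpinb9e and Serpinb9g. For NC over time it was 0 within the smaller cluster and 4 by exact tests (1 of them, Serpinb9, lower). Over all entries, 13580 were called at 72 h within the larger cluster, against 12156 (22.3%) in the main fit. How many were tested within that cluster is not given here, so no share can be read. Exact tests have no such count over all entries, so theirs cannot be set against a background. In the interaction it was 0 with the replicate block, without the filter and within the smaller cluster, and 2 with pseudocount 1, on the deposited scale and within the larger cluster. Leaving out 1 sample gave 0 to 1 there, 4 to 5 at 24 h, 5 to 6 at 72 h, 2 to 3 for NC over time and 5 for KD over time. The counts at 72 h and for KD over time include Serpinb9e and Serpinb9g, which had to differ. No share over all entries is given for these fits, so their counts cannot be set against a background.

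The replicate block left the counts at 24 h and 72 h at 4 and 5 of the members and ended the calls of Serpinb9b in the interaction (adjusted p = 0.094) and of Serpinb6a over time in NC (0.065). With it Serpinb2 was called over time in NC (2.91, adjusted p = 0.033), and it changed no other call. Over all entries, calls over time in NC numbered 2901 with the block and 4816 without, and in the interaction 28 with it, 244 with pseudocount 1 and 774 on the deposited scale, against 119. Within the larger cluster the interaction had 862 calls, and within the smaller cluster 1839, where calls numbered 1566 at 24 h, 5762 at 72 h and 1746 over time in NC, against 11820, 12156 and 4816. Without scaling, calls on the higher side made up 80.9% for KD over time (51.0% scaled) and 96.1% in the interaction (63.0% scaled).

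Signs turned for values that were not called. Within the smaller cluster, Serpinb6a at 24 h was -0.038, Serpinb2 at 72 h 0.28, Serpinb9 over time in KD 0.040, and the interaction of Serpinb6a 0.072, of Serpinb6b -0.0089 and of Serpinb1a -0.15. Within the larger cluster, Serpinb9b over time in NC was -0.45, Serpinb8 -0.031 and the interaction of Serpinb9 -0.065. Serpinb9b over time in NC was -0.073 with the block and -0.095 with 24 separate libraries, and from -0.21 to 0.24 without 1 replicate (0.30 without the averaged pair). On the deposited scale the interaction of Serpinb6a was 0.048. Leaving out 1 sample gave interactions of -0.11 to 0.14 for Serpinb9 and -0.0048 to 0.40 for Serpinb6b. The cause was not tested, other than that the clusters hold fewer samples.

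Depth limits Serpinb9e, Serpinb9g and the other clade B genes, which had few or no reads in NC.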
